A study of Mus musculus with 2 samples.

Results

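Transcripts of 5 STAT transcription factors (Stat2, Stat3, Stat4, Stat5a and Stat6) and of the 4 chains of the type I and type II interferon receptors (Ifnar1, Ifnar2, Ifngr1 and Ifngr2) were followed in immune cells from mouse pancreatic tumors. These 9 genes were taken by symbol from the 32285 genes of the count tables, and each symbol matched a single row. Single-cell RNA sequencing had been run on 2 droplet libraries, and each library pooled the tumors of 3 mice. All mice were male C57BL/6J animals of 5 to 6 weeks with K210 cells implanted in the pancreas, a line from a tumor of an engineered Pdx1-Cre mouse with Trp53 fl/fl among its alleles, in which Cre acts in pancreatic cells. Treatment by intraperitoneal injection started on day 7 and was repeated every 3 days. The control group received PBS. The other group received cmExoaCD11b, fibroblast exosomes that carried IL-12 mRNA and the STING agonist 2'3'-cGAMP (5 µg per mouse) and bore antibodies against CD11b, an integrin of myeloid cells. Cells were collected 48 h after treatment. Since each group was 1 library, no difference between the groups had a replicate check, no test was run, and a difference between treatments cannot be told apart from a difference between these pools or libraries.

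Interferons and many interleukins signal by a short route. A cytokine joins the chains of its receptor, JAK kinases bound to those chains phosphorylate STAT proteins, and the STATs pair up and enter the nucleus. Ifnar1 and Ifnar2 encode the chains that bind type I interferons, the family made after STING or viral sensing, and Ifngr1 and Ifngr2 encode those for interferon gamma, the product of activated T and NK cells. STAT2 works in the type I complex with the DNA-binding partner IRF9, which recognizes interferon-stimulated response elements. STAT3 serves IL-6 and IL-10, STAT4 serves IL-12 and is used by T helper 1 and NK cells, STAT5A serves IL-2, IL-7 and GM-CSF, and STAT6 serves IL-4 and IL-13. Transcript levels say nothing of phosphorylation, which was not measured by this assay.

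The RefSeq promoters of all 9 genes (GRCm38.p6, 11 windows of 250 bases before and 50 after a start) were searched on both strands for 2 short motifs. The core of the interferon-stimulated response element, TTTC followed after any 2 bases by a further TTTC, was held by 2 of the 11 windows, against 3.44% of all 32851 promoters of the same length. The core of the gamma-activated sequence, TTCNNNGAA, which STAT dimers bind, was held by 2 of the 11 windows, against 8.30% of all promoters. The 3 windows with a match before the start are shown, with the matched letters in capitals, because they mark the genes where the levels described later can be set beside a promoter sequence. Only the bases before the start are printed, 5′ to 3′ on the strand of the gene.
Stat2, chr10:128270248-128270497, plus strand: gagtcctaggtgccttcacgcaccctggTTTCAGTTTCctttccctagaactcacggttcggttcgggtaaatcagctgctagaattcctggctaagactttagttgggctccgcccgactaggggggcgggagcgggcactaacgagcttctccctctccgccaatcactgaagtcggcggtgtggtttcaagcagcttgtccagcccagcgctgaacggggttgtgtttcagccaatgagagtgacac
Stat4, the downstream of its 2 starts, chr1:52007990-52008239, plus strand: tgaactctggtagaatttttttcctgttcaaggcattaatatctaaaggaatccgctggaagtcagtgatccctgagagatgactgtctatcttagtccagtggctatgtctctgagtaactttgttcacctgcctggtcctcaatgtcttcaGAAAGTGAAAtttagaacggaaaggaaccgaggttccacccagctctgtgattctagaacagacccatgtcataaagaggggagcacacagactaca
Ifnar2, chr16:91372533-91372782, plus strand: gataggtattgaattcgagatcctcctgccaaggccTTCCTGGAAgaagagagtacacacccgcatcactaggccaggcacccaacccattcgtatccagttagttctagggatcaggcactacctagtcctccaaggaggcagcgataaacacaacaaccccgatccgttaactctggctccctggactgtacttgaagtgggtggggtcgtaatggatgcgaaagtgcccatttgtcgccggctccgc
The match in the Stat2 window lay at -222 to -213 from the start, that of Stat4 at -97 to -88 and that of Ifnar2 at -214 to -206. Ifnar1 held a gamma-activated core across its start, at -5 to 4. A match is a description of letters and not a site shown to be bound. Ifnar2, Ifnar1 and Ifngr2 lie near each other on chromosome 16, and Stat5a and Stat3 are neighbors on chromosome 11.

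After calling and filtering, 6832 PBS and 7069 cmExoaCD11b cells were kept, with a median of 3457 and 4114 unique molecular identifiers (UMIs, counted transcript molecules) per cell, and the libraries shared 15 of their cell barcodes. Cells were gated into classes by UMIs of marker genes, none of them a STAT or receptor gene studied here. Of these classes, 7 had at least 100 cells in each library and were compared: neutrophil-like (3540 PBS and 2531 cmExoaCD11b cells), immature neutrophil-like (1117 PBS and 1881 cmExoaCD11b cells), monocyte-like (189 PBS and 250 cmExoaCD11b cells), CD4 T-like (138 PBS and 230 cmExoaCD11b cells), CD8 T-like (141 PBS and 371 cmExoaCD11b cells), T-like with neither or both of these lineage markers (113 PBS and 281 cmExoaCD11b cells, called other T-like) and B-like (272 PBS and 323 cmExoaCD11b cells). Macrophage-like cells (339 PBS and 80 cmExoaCD11b cells) fell below that number in cmExoaCD11b and are described without being counted. The marker list of each of these classes was the highest of the 12 lists in its own class, apart from B-like cells of cmExoaCD11b, in which the plasma cell list summed to 10452 CPM and the B list to 3552. Among the 10 genes with the largest fold in neutrophil-like and in other T-like cells no marker of any list appeared. Free RNA, estimated from S100a8 and S100a9 in T-like cells, made up 2.41% of UMIs in PBS cells and 2.67% in cmExoaCD11b cells.

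Levels are given in CPM: a gene's UMIs per 1000000 UMIs from all cells of a class. Intervals in parentheses are exact 95% intervals and cover counting error alone. Because the assay tags transcript ends, levels of different genes were not compared with each other, and each gene was compared across classes and libraries. Reads of Stat5a may be shared with a close paralog, so its values are uncertain.

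**Figure D1:**
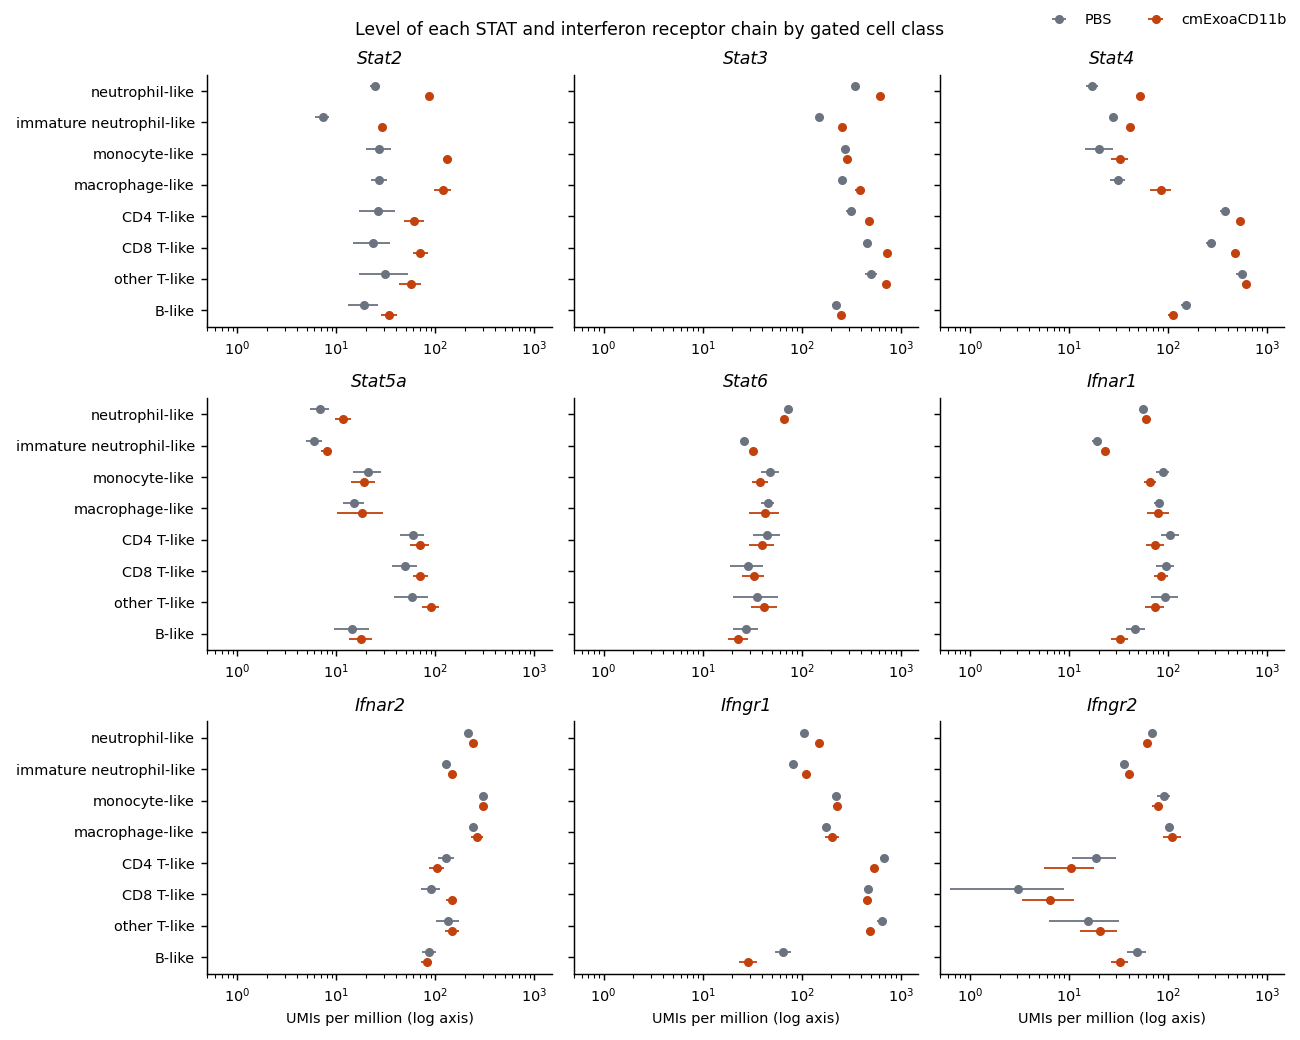
Level of each gene in CPM (log axis) in the 7 compared classes and macrophage-like cells, PBS in gray and cmExoaCD11b in orange; bars are exact 95% Poisson intervals. Ifngr1 sits above 450 in all T-like classes while Ifngr2 sits below 21 there, and Stat2 of cmExoaCD11b lies to the right of PBS in every class shown.

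The 9 genes divided the cells in different ways (the plot of levels by class). Orders of levels are given among the 7 compared classes and macrophage-like cells, 8 in all, and values of the smaller classes are added where they fall outside. Stat4, the IL-12 STAT, was highest of the 8 in the T-like classes. In PBS its level was 555 in other T-like cells, 377 in CD4 T-like cells, 274 in CD8 T-like cells and 152 in B-like cells. Those 4 classes had intervals apart from each other on these UMI sums. With PBS cells thinned to 1000 UMIs each, a Stat4 UMI remained in 47.2% (37.5 to 57.1) of other T-like cells. The shares were 24.6% (17.7 to 32.7) of CD4 T-like, 28.4% (21.1 to 36.6) of CD8 T-like and 20.2% (15.5 to 25.7) of B-like cells. These 3 intervals overlapped. The 4 myeloid classes among the 8 lay lower, from 17.1 in neutrophil-like to 31.1 in macrophage-like cells. In cmExoaCD11b macrophage-like cells, at 84.5 (65.9 to 107), overlapped B-like cells, at 112 (101 to 125). That overlap was limited to the whole B-like class. In B-like cells with under 0.1% of UMIs from the plasma list Stat4 was 192 in PBS and 238 in cmExoaCD11b. Dendritic cell-like cells (28 and 65 cells) stood near the whole B-like class in both libraries, at 161 (119 to 212) and 109.7 (88.3 to 135). NK-like cells (30 and 105 cells) had 359 (257 to 489) and 789 (703 to 882). The cmExoaCD11b value lay above all 8 classes with intervals apart. In epithelial-like cells, gated on keratins and Epcam, 1 Stat4 UMI was counted in 50 PBS cells and 0 in 31 cmExoaCD11b cells, which by a floor of 3 UMIs allows a level of up to 4.50. Stat5a was also highest in the 3 T-like classes, from 49.9 to 59.1 in PBS with overlapping intervals. B-like cells, at 14.6, overlapped monocyte-like cells at 20.7 and lay above neutrophil-like cells at 6.79.

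Stat3 was detected throughout, and its PBS level ranged among the 8 classes from 149 in immature neutrophil-like cells to 501 in other T-like cells. Plasma cell-like and epithelial-like cells of PBS had 84.3 (57.3 to 119.7) and 89.7 (73.0 to 109). The intervals of neutrophil-like, CD4 T-like, monocyte-like, macrophage-like and B-like cells overlapped between neighbors in that order. The order was another with PBS cells thinned to 1000 UMIs each. A Stat3 UMI then remained in 33.0% (26.2 to 40.3) of monocyte-like, 28.9% (27.4 to 30.5) of neutrophil-like and 26.2% (19.2 to 34.3) of CD8 T-like cells, with overlapping intervals. Stat6, the IL-4 STAT, was highest of the 8 in neutrophil-like cells in both libraries, at 72.1 (67.5 to 76.8) and 66.4 (61.3 to 71.9), apart from the next of the 8 in each. The 30 NK-like cells of PBS, with 10 UMIs, had 89.8 (43.1 to 165). The remaining 7 classes lay between 26.4 and 48.2 in PBS, with overlapping neighbors. Thinned to 1000 UMIs per cell, a Stat6 UMI remained in 6.95% (6.12 to 7.86) of neutrophil-like cells of PBS. The share was 7.25% (3.53 to 12.9) of CD4 T-like and 6.04% (3.06 to 10.6) of monocyte-like cells, with overlapping intervals. Stat2 was low in PBS, between 19.0 and 31.2 in 7 classes with overlapping intervals and 7.25 (6.13 to 8.53) in immature neutrophil-like cells. Immature neutrophil-like cells, the deepest of the 8 classes with a median of 14879 UMIs per cell in PBS, had the lowest PBS level of Stat2, Stat3, Stat5a, Stat6 and Ifnar1, although the intervals overlapped those of the next class for Stat5a and Stat6.

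The receptor chains differed in their order of classes. Among the 8 classes Ifnar2 was highest in monocyte-like cells, at 305 in PBS and 304 in cmExoaCD11b, followed by macrophage-like and neutrophil-like cells. It was lowest of the 8 in B-like cells, at 85.6 and 81.4, where in PBS the interval overlapped that of CD8 T-like cells. Epithelial-like cells had 53.3 (40.6 to 68.6) and 64.4 (46.6 to 86.8). Ifnar1 did not share this order: CD4 T-like, CD8 T-like, other T-like, monocyte-like and macrophage-like cells of PBS lay between 80.4 and 105 with overlapping intervals, and immature neutrophil-like cells were lowest at 19.0. Ifngr1, the chain that binds interferon gamma, was highest of the 8 in the T-like classes, from 466 in CD8 to 678 in CD4 cells of PBS, against 223 in monocyte-like and 64.9 in B-like cells. NK-like cells (30 and 105 cells) had 745 (594 to 924) and 768 (684 to 861), and in cmExoaCD11b this lay above all 3 T-like classes with intervals apart.

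Ifngr2, the chain that brings JAK2 to the receptor, was lowest of the 8 in the T-like classes, where Ifngr1 was highest. In cmExoaCD11b its interval in other T-like cells overlapped that of B-like cells. In B-like cells of cmExoaCD11b with under 0.1% of UMIs from the plasma list Ifngr2 was 65.2. Among the other 5 classes both chains were highest in monocyte-like and macrophage-like cells. Ifngr2 reached 103 in macrophage-like and 90.2 in monocyte-like cells of PBS. In CD8 T-like cells it was 3.05 (0.630 to 8.92), where 3 UMIs were counted in 141 cells. In cmExoaCD11b, 12 Ifngr2 UMIs were counted in 371 CD8 T-like cells, and 0 in 105 NK-like cells, which by the same floor allows a level of up to 7.71. Empty droplets held Ifngr2 at 55.0 and 42.8 CPM, above all 3 T-like classes. Expressed as Ifngr2 UMIs per 100 Ifngr1 UMIs, PBS cells had 65.5 (60.2 to 71.3) in the neutrophil-like class, 40.5 (33.7 to 48.4) in the monocyte-like class, 2.75 (1.59 to 4.43) in the CD4 T-like class and 0.655 (0.135 to 1.93) in the CD8 T-like class. In cmExoaCD11b the T-like classes again stood between 1.42 and 4.24, and the other 5 of the 8 classes above 35. Dendritic cell-like cells had 31.9 (18.8 to 52.2) and 27.8 (19.7 to 38.6). In the neutrophil-like class this balance was 41.4 (37.5 to 45.6) in cmExoaCD11b, lower than in PBS with intervals apart. There Ifngr1 was 106 and 150.0 and Ifngr2 69.4 and 62.1 in PBS and cmExoaCD11b.

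**Figure D2:**
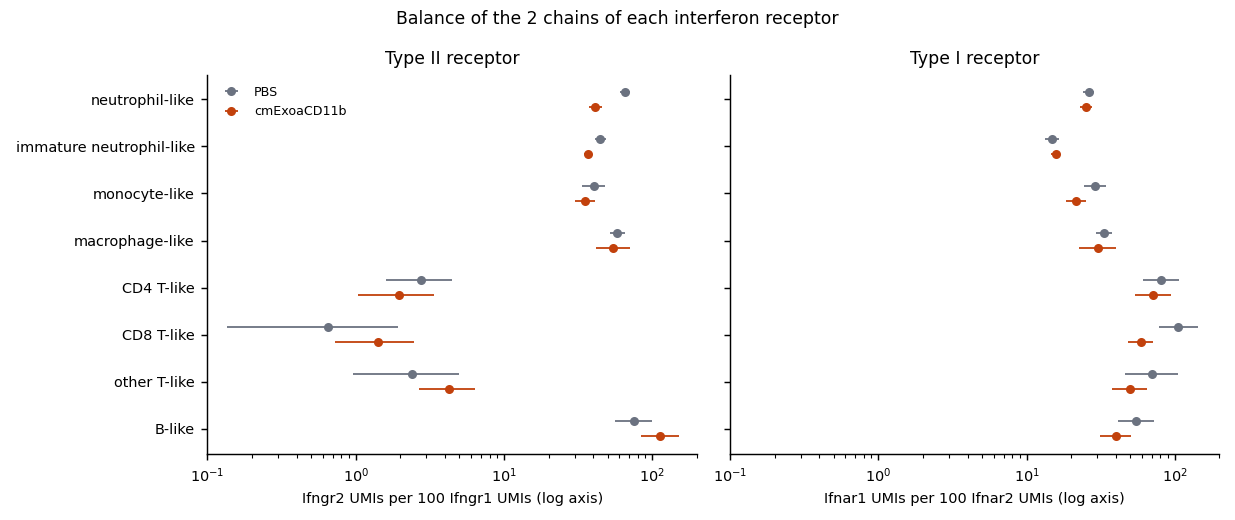
Left, Ifngr2 UMIs per 100 Ifngr1 UMIs, and right, Ifnar1 UMIs per 100 Ifnar2 UMIs (log axes), by class, PBS in gray and cmExoaCD11b in orange; bars are exact 95% intervals. The 3 T-like classes lie below 5 on the left and the other 5 classes drawn above 35.

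The type I chains showed a milder slant in the other direction. Ifnar1 UMIs per 100 Ifnar2 UMIs were 14.8 (13.3 to 16.5) in immature neutrophil-like cells and 26.2 (24.2 to 28.5) in neutrophil-like cells of PBS, and 81.4 (61.5 to 107) in CD4 T-like and 106 (78.1 to 143) in CD8 T-like cells. In CD8 T-like cells of cmExoaCD11b the value was 58.8 (48.1 to 71.8), lower than in PBS with intervals apart. These balances hold between classes, not between chains, because capture of the chains can differ.

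Between the libraries, a gene was called higher or lower when its level differed by at least 1.5-fold among genes with at least 50 UMIs over both libraries in that class. The 9 genes in 7 classes made 63 pairs, of which 60 could be compared and 3 (Ifngr2 in the T-like classes) had too few UMIs. Of the 60, 17 were higher in cmExoaCD11b, 1 was lower and 42 stayed within the fold. In neutrophil-like cells Stat2, Stat3, Stat4 and Stat5a were higher, 4 of 9, where 14.5% of all compared genes were higher and 15.2% lower. In immature neutrophil-like cells Stat2 and Stat3 were higher, 2 of 9, against 13.6% of genes higher and 1.93% lower. Stat2 and Stat4 were higher in monocyte-like cells, 2 of 9, against 13.2% higher and 6.65% lower. In CD4 T-like cells the higher genes were Stat2 and Stat3, 2 of 8, against 12.1% higher and 8.76% lower. CD8 T-like cells had 4 of 8 higher (Stat2, Stat3, Stat4 and Ifnar2), against 15.0% higher and 11.3% lower. Other T-like cells had 2 of 8 higher (Stat2 and Stat5a), against 11.7% higher and 7.26% lower. B-like cells had Stat2 higher and Ifngr1 lower, 1 of 9 each, against 10.3% higher and 14.7% lower. The median ratio of all compared genes was 1.15 in immature neutrophil-like cells (0.21 on the log2 scale) and 0.915 in B-like cells (-0.13), so ratios relative to that median are added for these classes. Elsewhere it lay within 0.1 of 0 on that scale.

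**Figure D3:**
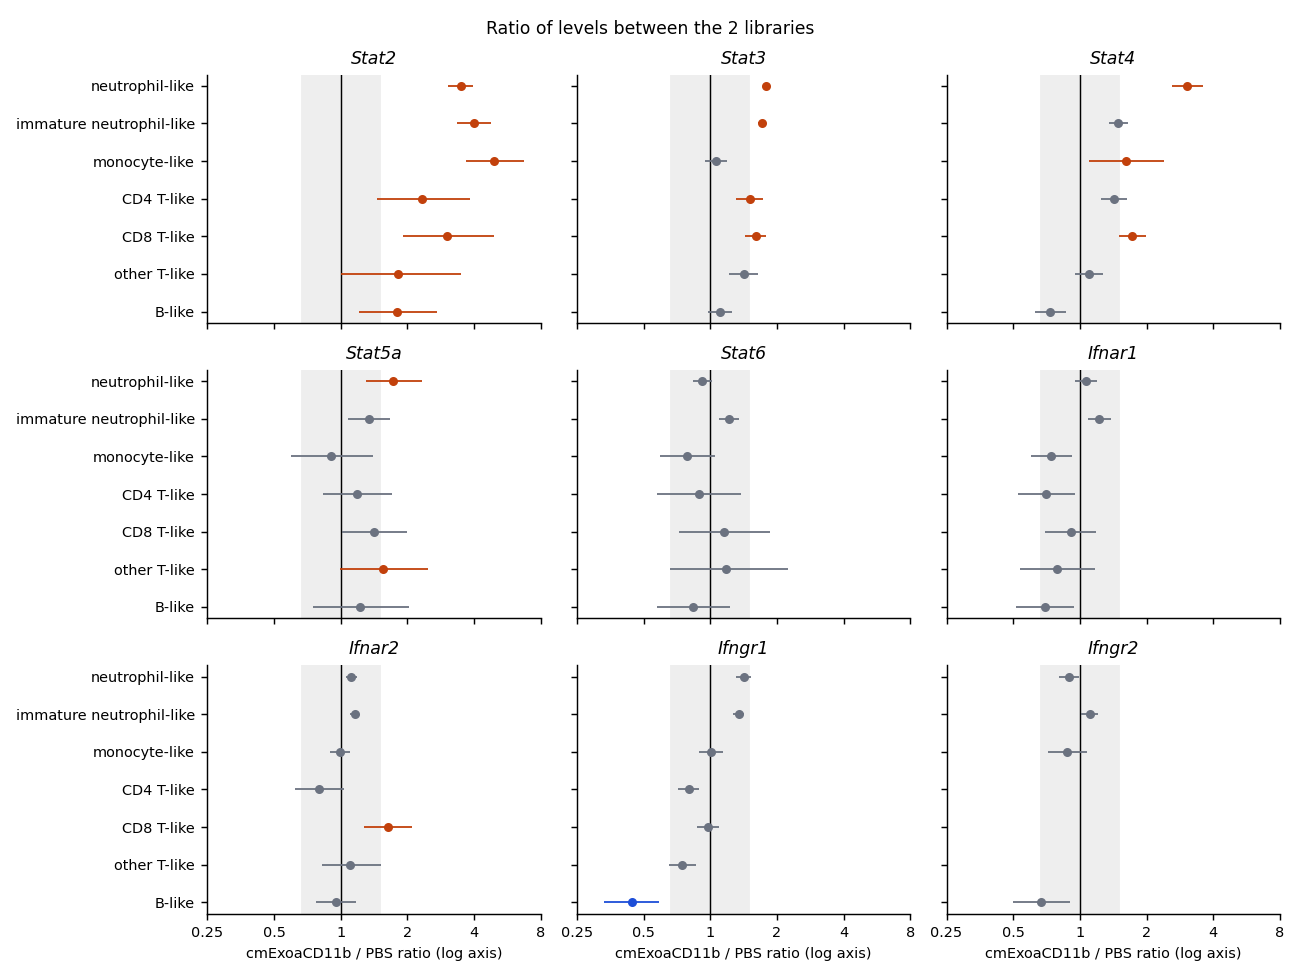
Ratio of the level in cmExoaCD11b to that in PBS (log axis) for each gene and compared class; bars are exact 95% intervals for counting error, the gray band marks less than 1.5-fold, orange points are called higher and the blue point lower. Stat2 lies right of the band in all 7 classes, and Stat6, Ifnar1, Ifngr1 and Ifngr2 have no orange point.

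Stat2, the partner of IRF9 in type I signaling, was the single gene of the 9 called higher in all 7 classes. Its level went from 27.0 in PBS to 133 in cmExoaCD11b in monocyte-like cells, a ratio of 4.91 (3.67 to 6.70). Beside it, the plasma list in this class summed to 1266 CPM in PBS and 237 in cmExoaCD11b and the macrophage list to 811 CPM in PBS and 477 in cmExoaCD11b, and their part in the ratio was not tested. In cells with under 0.1% of UMIs from the plasma list the ratio was 4.92. In neutrophil-like cells it was 24.8 and 86.1, a ratio of 3.48 (3.05 to 3.97), on 321 and 806 UMIs. In immature neutrophil-like cells it was 7.25 and 29.0, a ratio of 4.0 (3.36 to 4.79), or 3.47 relative to the median gene. Each of these 3 ratios exceeded those of more than 98% of the compared genes of its class, as a description.

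The Stat2 ratios of the lymphoid classes were smaller than those of the 3 compared myeloid classes on the counts as deposited, with overlap for some. Thinned to 1000 UMIs per cell the order was another. Thinning gave 6.63 in CD4 T-like, 5.56 in other T-like, 6.18 in B-like and 3.64 in CD8 T-like cells. Beside these stood 7.46 in monocyte-like, 2.75 in neutrophil-like and 2.85 in immature neutrophil-like cells. The lymphoid values rested on few PBS UMIs. In PBS a Stat2 UMI remained in 0.725% of 138 CD4 T-like and 0.926% of 108 other T-like thinned cells. For B-like and CD8 T-like cells it remained in 0.778% of 257 and 2.84% of 141. No order of these ratios is therefore drawn. The levels were 23.4 and 70.3 in CD8 T-like cells (ratio 3.01, 1.92 to 4.91), 26.3 and 61.1 in CD4 T-like cells (ratio 2.33, 1.45 to 3.85), 31.2 and 56.5 in other T-like cells (ratio 1.81, 1.00 to 3.50) and 19.0 and 34.2 in B-like cells (ratio 1.80, 1.21 to 2.73, or 1.97 relative to the median gene). The ratio interval of monocyte-like cells lay apart from those of B-like and other T-like cells and overlapped those of CD4 and CD8 T-like cells. Among the 8 classes the order of levels also differed between libraries. In cmExoaCD11b monocyte-like and macrophage-like cells came first of the 8 at 133 and 118, apart from neutrophil-like cells at 86.1, while in PBS the first 7 overlapped. Dendritic cell-like cells lay above all 8 in both libraries. Stat2 in empty droplets was 24.5 and 61.9. With the expected free RNA subtracted, Stat2 was past 1.5-fold in all 7 classes.

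Stat2 was then set beside 4 classical interferon-induced transcripts, Ifit1, Ifit2, Ifit3 and Rsad2, a split chosen after the data had been seen. Every cell was thinned to 1000 UMIs so that depth was equal, and cells were divided by whether any UMI of the 4 genes remained. Cells with such a UMI made up 17.8% of neutrophil-like cells in PBS and 42.6% in cmExoaCD11b, 2.88% and 15.7% of immature neutrophil-like cells, and 13.7% and 39.3% of monocyte-like cells. In B-like cells the shares were 3.89% and 7.05%, and free RNA of empty droplets held the 4 genes at 382 and 899 CPM. Before thinning, the shares were 27.1% and 57.2% of neutrophil-like, 22.1% and 51.7% of immature neutrophil-like, 28.6% and 71.2% of monocyte-like and 11.0% and 25.7% of B-like cells, and thinning left out 144 PBS and 135 cmExoaCD11b neutrophil-like cells. The T-like shares before thinning were 57.2% and 69.6% in CD4, 42.6% and 61.5% in CD8 and 38.1% and 66.5% in other T-like cells. With thinning they were 34.8% and 51.5% in CD4, 22.7% and 40.2% in CD8 and 27.8% and 50.7% in other T-like cells. After thinning, the PBS share of immature neutrophil-like cells did not exceed that of B-like cells, whereas before thinning, at a greater depth per cell, it did. Among neutrophil-like cells Stat2 was higher in those with such UMIs. In neutrophil-like cells of PBS the Stat2 level was 14.7 (10.5 to 19.9) without and 106 (81.5 to 135) with such UMIs. In cmExoaCD11b it was 34.9 (25.7 to 46.3) without and 153 (129.9 to 179) with them. The ratio between libraries was 2.37 (1.53 to 3.69) in neutrophil-like cells without and 1.45 (1.07 to 1.97) in those with such UMIs, against 2.75 for all thinned neutrophil-like cells. In monocyte-like cells without such UMIs the ratio was 3.79 (1.59 to 10.4), and in those with them 45 UMIs were counted in 96 cmExoaCD11b cells and 0 in 25 PBS cells. CD4 T-like cells of PBS held 0 Stat2 UMIs in 48 cells with such UMIs and 1 in 90 without. In cmExoaCD11b these counts were 8 in 118 and 3 in 111. Other T-like cells held 0 in 30 and 1 in 78 in PBS, and 10 in 138 and 4 in 134 in cmExoaCD11b. Ifnar2 did not follow the split in neutrophil-like cells, where its 4 values lay between 228 and 239.8 with overlapping intervals.

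**Figure D4:**
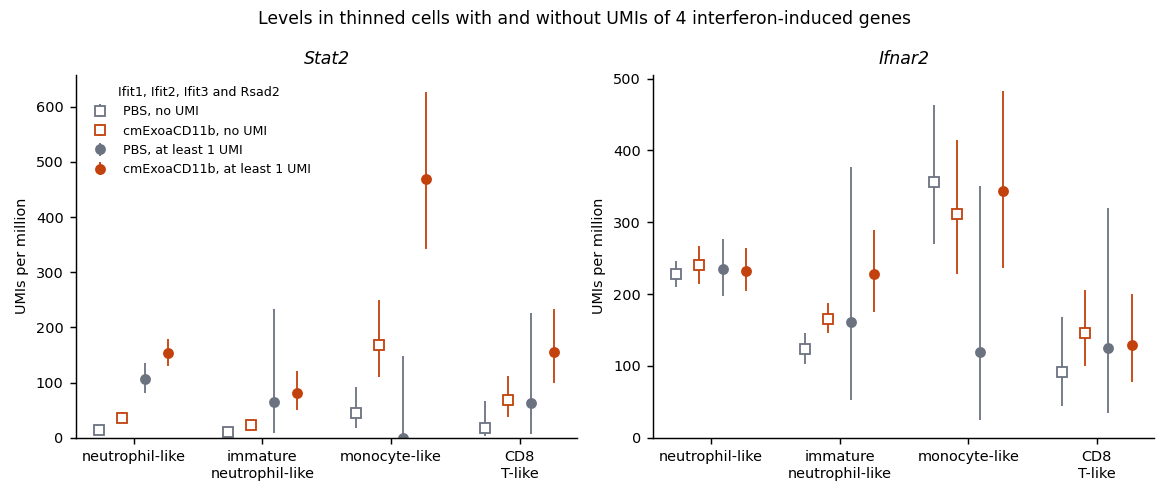
Level of Stat2 (left) and Ifnar2 (right) in CPM in cells thinned to 1000 UMIs, divided by library (PBS gray, cmExoaCD11b orange) and by whether a UMI of Ifit1, Ifit2, Ifit3 or Rsad2 remained (filled) or not (open); bars are exact 95% Poisson intervals. In neutrophil-like cells the filled points of Stat2 lie above the open ones in both libraries, and those of Ifnar2 do not.

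Stat3 was higher in 4 of 7 classes. In neutrophil-like cells it went from 345 to 618 (ratio 1.79, 1.72 to 1.86), and in immature neutrophil-like cells from 149 to 256 (ratio 1.71, 1.64 to 1.78), which relative to the median gene was 1.49, just inside the fold. CD8 T-like cells had 453 and 727 (ratio 1.60, 1.44 to 1.79). CD4 T-like cells stood at the threshold with 317 and 478 (ratio 1.5, 1.31 to 1.74), and 6 of 10 alternatives put them inside it. In monocyte-like cells Stat3 was 272 and 288 (ratio 1.06, 0.950 to 1.18). Thinned to 1000 UMIs per cell that ratio turned to 0.704, and it was 0.479 (0.316 to 0.714) in thinned monocyte-like cells with no UMI of the 4 interferon-induced genes. Beside these values, the marker sum of the neutrophil list in neutrophil-like cells was 14367 CPM in PBS and 21569 in cmExoaCD11b, and that of the precursor list in immature neutrophil-like cells was 82767 CPM in PBS and 70087 in cmExoaCD11b. The part of these differences in the Stat3 ratios was not tested.

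Stat4 was higher in 3 of 7 classes. Its largest ratio was in neutrophil-like cells, where it is scarce: 17.1 and 52.2, a ratio of 3.05 (2.60 to 3.59) on 222 and 489 UMIs, carried by 161 of 3540 PBS and 296 of 2531 cmExoaCD11b cells. Beside it, the 5 T cell markers of the gate summed to 21.1 CPM in PBS and 28.6 in cmExoaCD11b in this class and the 5 NK markers to 0.771 CPM in PBS and 3.20 in cmExoaCD11b, with 2 of the NK markers at 0 in PBS, and their part in the ratio was not tested. In CD8 T-like cells, where IL-12 signaling through STAT4 is well known, the level went from 274 to 471 (ratio 1.72, 1.5 to 1.98), and 3 of 10 alternatives put it inside the fold. CD8 T-like cells also differed in the plasma list, 30.5 CPM in PBS and 1138 in cmExoaCD11b, and in the NK list, 175 CPM in PBS and 257 in cmExoaCD11b, and in cells with under 0.1% of UMIs from the plasma list the Stat4 ratio was 1.82. In CD4 T-like cells Stat4 was 377 and 536 (ratio 1.42, 1.25 to 1.63), inside the fold. Other T-like cells, with the highest level of the 7 compared classes in both libraries, had 555 and 610.3 (ratio 1.10, 0.950 to 1.28). The monocyte-like ratio of 1.61 (1.10 to 2.40) rested on 39 and 97 UMIs, of which a single cmExoaCD11b cell held 24.

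Stat5a was higher in neutrophil-like cells, from 6.79 to 11.7 (ratio 1.73, 1.30 to 2.32, 88 and 110 UMIs), and in other T-like cells, from 57.9 to 89.6 (ratio 1.55, 0.997 to 2.48), where 4 of 9 alternatives put it inside the fold. In the other 5 classes its ratio lay between 0.908 and 1.41. Stat6 stayed inside the fold in all 7 classes, with ratios from 0.788 in monocyte-like to 1.21 in immature neutrophil-like cells. In neutrophil-like cells, where its UMI sums were highest, Stat6 was 72.1 in PBS and 66.4 in cmExoaCD11b (ratio 0.922, 0.832 to 1.02).

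Of the receptor chains, Ifnar2 in CD8 T-like cells was the single case called higher, from 89.6 to 146 (ratio 1.63, 1.28 to 2.10, 88 and 272 UMIs). It was inside the fold when doublets were kept and when cells were thinned. In the 2 neutrophil-like classes and monocyte-like cells Ifnar2 gave ratios of 1.12 (1.06 to 1.18), 1.16 (1.10 to 1.21) and 0.994 (0.895 to 1.11), of which the second was 1.00 relative to the median gene. Ifnar1 stayed inside the fold in all 7 classes. It was 88.7 and 65.9 in monocyte-like cells (ratio 0.743, 0.602 to 0.918) and 105 and 74.2 in CD4 T-like cells (ratio 0.706, 0.524 to 0.950), both with intervals below 1. The monocyte-like ratio turned to 1.09 with thinning and to 1.52 in cells with no marker of another class, 10 in each library. The CD4 T-like ratio was past the fold in 3 of 10 alternatives, and 0.982 when barcodes were called by rank of UMIs only. In B-like cells the Ifnar1 ratio was 0.694, and 0.965 in those with under 0.1% of UMIs from the plasma list.

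Ifngr1 went from 106 to 150.0 in neutrophil-like cells (ratio 1.41, 1.31 to 1.53) and from 81.4 to 109 in immature neutrophil-like cells (ratio 1.34, 1.27 to 1.43, or 1.17 relative to the median gene), inside the fold with intervals above 1. Thinned to 1000 UMIs per cell, the neutrophil-like ratio was 1.52, past the fold. In CD4 T-like and other T-like cells its ratios of 0.798 (0.714 to 0.891) and 0.748 (0.648 to 0.866) had intervals below 1, and CD8 T-like cells had 0.977 (0.871 to 1.10). The other T-like ratio was 0.933 with thinning and 0.557 when barcodes were called by rank of UMIs only. Ifngr2 ranged from 0.670 in B-like to 1.11 in immature neutrophil-like cells, the latter 0.960 relative to the median gene.

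In B-like cells Ifngr1 was called lower, from 64.9 to 28.7 (ratio 0.443, 0.332 to 0.589, 116 and 89 UMIs). A single PBS cell held 19 of these UMIs, and with per-cell means the ratio was 0.679. The class was not alike in the 2 libraries. Its plasma list summed to 2331 CPM in PBS and 10452 in cmExoaCD11b, its B list to 5671 CPM in PBS and 3552 in cmExoaCD11b and its neutrophil precursor list to 2101 CPM in PBS and 538 in cmExoaCD11b. All 9 ratios were therefore recomputed in the 240 PBS and 252 cmExoaCD11b B-like cells in which the plasma list made up less than 0.1% of UMIs, a choice made after these sums had been seen. There Ifngr1 was 0.743 (0.539 to 1.02), inside the fold, Ifngr2 was 1.08 (0.785 to 1.5), Ifnar1 0.965 (0.670 to 1.39) and Ifnar2 0.945 (0.717 to 1.24). Stat2 was 2.65 (1.64 to 4.43) and Stat3 1.73 (1.51 to 1.99), both past the fold, and Stat4 was 1.24 (1.05 to 1.48) in place of 0.736. Thus no receptor chain differed by 1.5-fold in those B-like cells, where 7.58% of 6188 compared genes were higher and 6.88% lower.

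Some values of the classes too small to be counted follow. In macrophage-like cells Stat2 was 27.2 and 118 (ratio 4.35, 3.30 to 5.73), Stat4 31.1 and 84.5 (ratio 2.72, 2.01 to 3.65) and Stat3 256 and 389 (ratio 1.52, 1.34 to 1.72), while the ratios of all 4 receptor chains lay between 0.991 and 1.15. A single cmExoaCD11b cell held 20 of the 98 Stat2 UMIs. In this class the neutrophil list summed to 1492 CPM in PBS and 465 in cmExoaCD11b and the monocyte list to 2005 CPM in PBS and 1012 in cmExoaCD11b, and their part in these ratios was not tested. Dendritic cell-like cells (28 and 65 cells) had the highest PBS level of Stat2 of the 12 classes, 121 and 181 (ratio 1.49, 1.03 to 2.20). NK-like cells (30 and 105 cells) had Stat4 at 359 and 789 (ratio 2.20, 1.58 to 3.13) and Stat3 at 386 and 902 (ratio 2.34, 1.70 to 3.29). NK-like cells had 0 Stat2 UMIs in PBS and 15 in cmExoaCD11b. Stat6 there was 89.8 (43.1 to 165) in PBS and 43.7 (25.4 to 69.9) in cmExoaCD11b. Ifnar1 in NK-like cells was 44.9 (14.6 to 105) and 87.4 (60.5 to 122), on 5 and 34 UMIs. Their macrophage list summed to 1284 CPM in PBS and 36.0 in cmExoaCD11b. Their monocyte list summed to 808 CPM in PBS and 303 in cmExoaCD11b. The part of these lists in the NK-like ratios was not tested. Epithelial-like cells had Ifngr1 at 166 and 130.4 and Ifngr2 at 71.9 and 89.9, with no ratio outside 1.5-fold among the 4 receptor chains.

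The other genes of the pathway were read from a list of 34, with 4 kinases, IRF9, 8 inhibitors, 8 ligands and 13 receptor chains. In neutrophil-like cells 11 of 30 compared genes were higher and 2 lower, in immature neutrophil-like cells 14 of 29 and 1, in monocyte-like cells 4 of 24 and 1, in CD4 T-like cells 7 of 27 and 0, in CD8 T-like cells 11 of 24 and 1, in other T-like cells 5 of 22 and 1, and in B-like cells 4 of 22 and 7. In the B-like cells with little of the plasma list, 1 of 16 (Irf9) was higher and 0 lower. Apart from Irf9, the B-like calls named below were therefore not made in those cells, where fewer genes had enough UMIs. The shares of all genes given for each class are the background for these counts. Of the higher genes in immature neutrophil-like cells, Jak1, Socs3, Il10 and Il6ra fall within 1.5-fold once divided by the median ratio of that class.

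**Figure D5:**
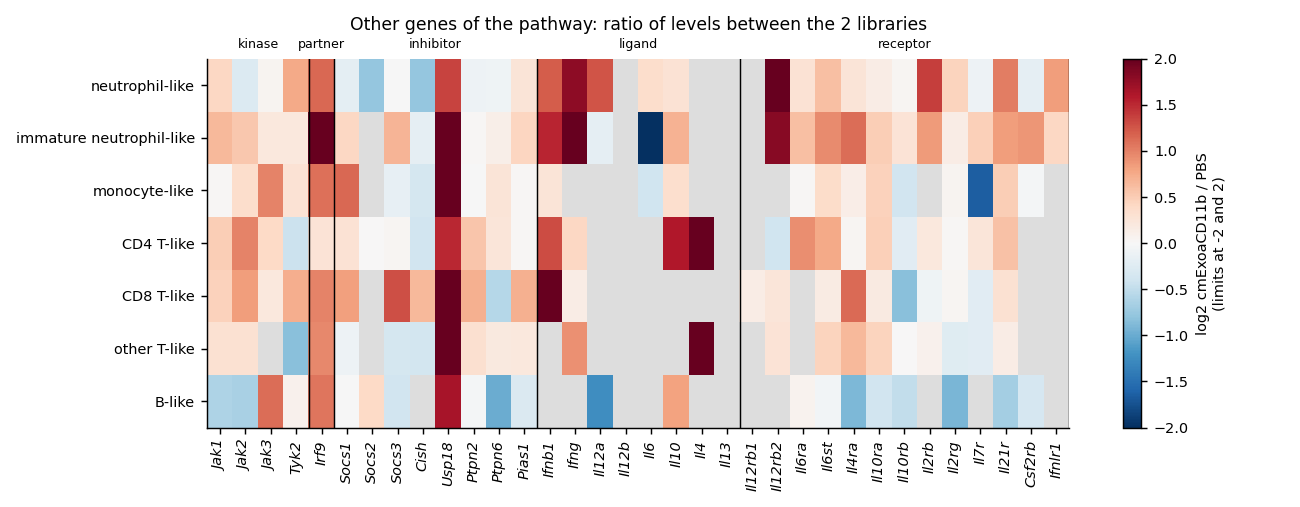
Log2 ratio of cmExoaCD11b to PBS for the 34 other genes of the pathway in the 7 compared classes, red higher and blue lower, with colors limited at -2 and 2; gray marks fewer than 50 UMIs, and Il4, with 0 UMIs in PBS, is drawn at the upper limit. The columns of Usp18 and Irf9 are red throughout, although Irf9 in CD4 T-like cells is within 1.5-fold.

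Irf9, the DNA-binding partner of STAT2, was higher in 6 of 7 classes. It was 9.94 and 48 in immature neutrophil-like cells (ratio 4.83, 4.17 to 5.62) and had ratios from 1.95 to 2.22 in the other 5, against 1.21 (0.822 to 1.79) in CD4 T-like cells. The kinases had calls in both directions. Tyk2, which pairs with IFNAR1, was higher in neutrophil-like (1.69) and CD8 T-like cells (1.66). It was called lower in other T-like cells (0.560), with an interval that included 1. Jak2 was higher in CD4 and CD8 T-like cells (1.98 and 1.79) and lower in B-like cells (0.639), and Jak1 was higher in immature neutrophil-like (1.57) and lower in B-like cells (0.653). Jak3, which serves the common gamma chain, was higher in monocyte-like (1.99) and B-like cells (2.16). In B-like cells with little of the plasma list, none of these kinases was called higher or lower.

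Among the inhibitors, Usp18, which binds IFNAR2 and dampens type I signaling, was higher in all 7 classes. In monocyte-like cells it was 8.30 and 83.1 (ratio 10.0, 6.04 to 17.8), in immature neutrophil-like cells 2.73 and 22.9 (ratio 8.38, 6.38 to 11.2) and in neutrophil-like cells 42.9 and 109 (ratio 2.55, 2.30 to 2.83). The ratio in other T-like cells, 16.1 (4.31 to 135), rested on 2 and 80 UMIs. CD8 T-like cells had 6 of 7 compared inhibitors higher: Usp18 (5.76), Socs3 (2.44), Socs1 (1.77), Ptpn2 (1.64), Pias1 (1.63) and Cish (1.57). No other compared class had more than 2, which beside Usp18 were Socs1 in monocyte-like (2.21) and Socs3 in immature neutrophil-like cells (1.60). Cish and Socs2, both known as targets of STAT5, were lower in neutrophil-like cells (0.583 and 0.588), and Ptpn6 was lower in B-like cells (0.502).

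The ligand counts came from few cells in several classes. Ifng, the ligand of the type II receptor, was 319 and 599 in other T-like cells (ratio 1.88, 1.57 to 2.27) and 561 and 619 in CD8 T-like cells (ratio 1.10, 0.996 to 1.22, within the fold). In neutrophil-like cells its ratio of 3.46 rested on 24 and 60 UMIs, and in immature neutrophil-like cells that of 8.32 on 7 and 101, of which a single cell held 35. Ifnb1, the interferon beta gene, was higher in 4 of 5 compared classes, neutrophil-like (2.30), immature neutrophil-like (2.88), CD4 T-like (2.46) and CD8 T-like (7.52). In cmExoaCD11b neutrophil-like cells 35 of 2531 cells held all 228 Ifnb1 UMIs and a single cell held 66, and in CD8 T-like cells a single cell held 49 of 57. Il4 was at 0 UMIs in CD4 T-like and other T-like cells of PBS and at 82 and 75 in those of cmExoaCD11b, at least 20.4-fold and 10.1-fold higher against a floor of 3 UMIs in the PBS class, but 8 and 6 cells held these UMIs. Il10 was higher in CD4 T-like (3.04), B-like (1.75) and immature neutrophil-like cells (1.61), with an interval above 1 in only 2 of 5 compared classes. Il12a was higher in neutrophil-like (2.39) and lower in B-like cells (0.421). The exosomes carried IL-12 mRNA, and whether it added to the Il12a counts was not tested. Il6 was lower in immature neutrophil-like cells (0.0665, 52 and 6 UMIs).

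Of the other receptor chains, Il12rb2, which recruits STAT4, was higher in neutrophil-like cells, 2.01 and 9.08 (ratio 4.53, 2.89 to 7.32, 26 and 85 UMIs), and in immature neutrophil-like cells, 0.348 and 1.23 (ratio 3.54, 1.58 to 9.33, 7 and 43 UMIs). In CD8 T-like cells, where its level was 130.3 and 154, the ratio was 1.18 (0.957 to 1.47). Il2rb and Il21r were also higher in neutrophil-like (2.62 and 2.03) and immature neutrophil-like cells (1.81 and 1.78). Of the 5 classes in which Il2rb was compared, its interval lay above 1 in only 1. In immature neutrophil-like cells the T cell markers summed to 10.9 CPM in PBS and 16.8 in cmExoaCD11b. The NK markers there summed to 0.845 CPM in PBS and 0.917 in cmExoaCD11b. Il4ra, the IL-4 chain that uses STAT6, was higher in immature neutrophil-like (2.17), CD8 T-like (2.19) and other T-like cells (1.57). The IL-6 chains Il6st and Il6ra, upstream of STAT3, were higher in immature neutrophil-like (1.93 and 1.52) and CD4 T-like cells (1.69 and 1.90), and Il6st in neutrophil-like cells (1.51). Csf2rb was higher in immature neutrophil-like (1.85) and Ifnlr1 in neutrophil-like cells (1.79). Lower were Il10rb in CD8 T-like (0.558), Il7r in monocyte-like (0.320), and Il4ra, Il2rg and Il21r in B-like cells (0.538, 0.531 and 0.625).

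The genes whose profile was most like each of the 9 were found by Pearson's r of log2(level + 10) over 14 profiles, the 7 classes in both libraries, among 6185 genes with a mean of at least 20 CPM. The points share libraries and class structure, so r is a description. Stat2 was most like Xaf1 (r = 0.945), Trafd1 (r = 0.939) and Eif2ak2 (r = 0.930), all 3 known as interferon-induced genes. Stat3 was most like Btbd7 (r = 0.960), Coq10b (r = 0.928) and A930015D03Rik (r = 0.928), Stat4 most like Slain1 (r = 0.987), Dock9 (r = 0.985) and Gimap9 (r = 0.985), and Stat5a most like Gbp8 (r = 0.982), Ssbp2 (r = 0.982) and Madd (r = 0.982). For Stat6 the nearest were Bcl6 (r = 0.963), Slc2a1 (r = 0.956) and Ifrd1 (r = 0.953). Ifnar1 was nearest to Ptms (r = 0.950), Irf2bpl (r = 0.938) and Elk3 (r = 0.937), Ifnar2 to Rhbdf2 (r = 0.959), Rbms1 (r = 0.954) and Il17ra (r = 0.939), Ifngr1 to Ppm1h (r = 0.962), Tex2 (r = 0.957) and Ttc39c (r = 0.956), and Ifngr2 to Nuak2 (r = 0.946), Lyn (r = 0.945) and Zfp608 (r = 0.940).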

How the data were processed

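For both 3' droplet libraries the authors deposited unfiltered tables of UMI counts, empty droplets included, made with Cell Ranger. Version 7.1.0 stands in the headers and a different one in the study's methods, and no genome build was given in the sources used here. The files held 67143628 UMIs over 644248 barcodes for PBS and 81288480 over 723594 for cmExoaCD11b.

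Cells were called by a cut-off on ranked UMIs plus a test against the empty-droplet profile (false discovery rate 0.01, at least 500 UMIs), and left out under 200 genes or above 20% mitochondrial UMIs. The highest Scrublet scores, 421 and 453 cells, were removed at 0.8% per 1000 cells, because the automatic threshold marked 0. This left 49957158 and 62343900 UMIs. A cell entered a class with at least 2 detected markers of its list and more than of any other list. The neutrophil precursor list counted only where it made up at least 1% of a cell's UMIs, a rule set after marker levels had been seen. Levels are UMI sums in CPM with exact Poisson intervals, and ratios have exact conditional intervals. The ratio and its call were tried on simulated Poisson counts of class sums. Such counts leave out the clumping of UMIs within single cells, so they cannot show how the intervals behave under it. The 9 genes, the pathway list, the 11 alternatives and the rule for named genes (all 9, the called genes of the pathway list, and the 3 most alike by r) were chosen with earlier results of these data known, and 1 more alternative was added later. Some genes of these families are not reported here. Python 3.11.15, scanpy 1.11.5, numpy 2.4.6 and scipy 1.17.1 were used.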

Additional observations from a re-analysis of the deposited data

Results flagged for a closer look

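Stat4 had a ratio of 3.05 in neutrophil-like and 0.736 in B-like cells, with intervals on opposite sides of 1, and 1.24 (1.05 to 1.48) in B-like cells with little of the plasma list. Ifnar1 had 1.23 in immature neutrophil-like and 0.694 in B-like cells, or 1.06 relative to the median gene in the former and 0.965 (0.670 to 1.39) with little of the plasma list in the latter. Ifngr1 had 1.41 in neutrophil-like and 0.443 in B-like cells, and 0.743 (0.539 to 1.02) with little of the plasma list. Ifngr2 had 1.11 in immature neutrophil-like and 0.670 in B-like cells, or 0.960 relative to the median gene in the former and 1.08 (0.785 to 1.5) with little of the plasma list in the latter. All 4 stood out because the values of the named classes lay on opposite sides of 1, and the differences between classes were not tested.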

How the results depend on the processing

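Stat2 stayed past 1.5-fold in 6 of the 7 classes under every alternative that gave a value, and in B-like cells under 7 of 10. Its ratio became 5.23 in neutrophil-like and 1.56 in CD8 T-like cells when barcodes were called by rank of UMIs only, and, thinned to 1000 UMIs per cell, 2.75 in neutrophil-like, 2.85 in immature neutrophil-like, 7.46 in monocyte-like, 6.63 in CD4 T-like, 5.56 in other T-like and 6.18 in B-like cells, where few UMIs remained. The mean of per-cell levels gave 3.04 in immature neutrophil-like cells. With cells holding no marker of another class, which left 31 and 66 immature neutrophil-like and 10 and 10 monocyte-like cells, Stat2 was 1.75 and 10.7, and Stat3 in immature neutrophil-like cells turned to 0.805. The cause was not tested beyond the loss of cells. Levels by class also depended on the processing: over 9 alternatives 306 were marked as moved and 828 as the same. With thinning 69 moved and 57 did not, and with per-cell means 55 moved and 71 did not. The orders of classes given above are therefore those of UMI sums.

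The 17 higher calls became 7 with no marker of another class and 6 at a 2-fold call, and scaling to the median gene gave 14 higher and 1 lower. The number of lower calls, 1 above, was 4 with calling by rank or with thinning. It was 2 with doublets kept, with 3 detected markers, with per-cell means, with free RNA subtracted or with at least 20 UMIs. In cells with little of the plasma list it was 0. The called pairs were not always the same. With per-cell means they were Ifnar1 in CD4 T-like (0.590) and CD8 T-like cells (0.624). Ifngr1 in B-like cells was then inside the fold (0.679). Calling by rank left 41 and 26 CD4 T-like, 19 and 21 other T-like and 74 and 97 B-like cells, fewer than 100. With thinning few UMIs remained, as 26 and 19 for Ifngr1 in B-like cells. The 56 higher and 13 lower calls of the pathway list became 30 and 3 at 2-fold, and the lower calls 6 with little of the plasma list. Stat5a in neutrophil-like and Ifngr2 in T-like cells rested on few UMIs, and no paired analysis was possible because the labels number no replicates.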
